A study of Rattus norvegicus with 6 samples.

Results

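The auxiliary subunits of voltage-gated calcium channels were followed in rat dorsal root ganglia (DRG) after chronic constriction injury (CCI) of the sciatic nerve. The set held the 4 α2δ genes (Cacna2d1, Cacna2d2, Cacna2d3, Cacna2d4) and the 4 β genes (Cacnb1, Cacnb2, Cacnb3, Cacnb4), each matched by its symbol among 43350 gene rows of the deposited table. All 8 were found. Where several rows carried a symbol, the protein-coding row was taken, and then the row with the most counts.

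Total RNA came from the L4-6 DRG of male Sprague-Dawley rats on day 11, in 3 CCI and 3 sham libraries. In CCI rats the left sciatic nerve was loosely tied with ligatures, and in sham rats it was only exposed. The labels give no age and list no treatment for the sham rats. The study does give the rats' age when they were acquired, some weeks of habituation before the experiments. The DRG were of the operated side, and each library was read as coming from a single rat, as the study's methods state. The library protocol in the labels speaks of a pooled sample, so whether p-values measure the spread between animals rests on that reading. Strain, sex, ganglia and day were the same in both groups, and injured and uninjured neurons of the ganglia were not separated.

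A voltage-gated calcium channel is built around an α1 subunit, which forms the pore and sets the channel type. The α2δ subunits lie outside the membrane, are cut from 1 precursor into linked α2 and δ parts, and carry channels to the cell surface and to presynaptic terminals. The proteins of Cacna2d1 and Cacna2d2 are the binding sites of gabapentin and pregabalin, drugs given for neuropathic pain. The β subunits are cytoplasmic, bind the linker between the I and II repeats of high-voltage-activated α1 subunits and help them reach the membrane.

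The libraries held 75423546 to 87615743 counts. Of the nerve injury markers (among them Atf3, Npy and Gal), 8 of 8 were called higher. Their summed level ran from 422 to 727 CPM (counts relative to the library total) in CCI and from 175 to 188 CPM in sham. The study already names these genes as higher in the same libraries. Their calls and their sum are therefore no independent check of the labels. Among CCI libraries, CCI 1 had the top level for 8 of 8 of these markers, for 62.8% of all rows called higher and for 35.0% of all rows tested. Pan-neuronal markers, all 10 of which were tested, summed to 8537 to 9227 CPM in CCI and 7160 to 8386 CPM in sham. Skeletal muscle markers summed to 419 CPM in sham 1, against 14.2 and 52.4 CPM in the other sham libraries and 10.97 to 26.6 CPM in CCI.

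The 3 α2δ genes with a RefSeq entry began in GC-rich sequence. Promoter windows of 300 bases, from 250 bases before to 50 after the start, were taken from RefSeq on build GRCr8, which is not the build of the deposited coordinates. Entries existed for 5 of the 8 members (Cacna2d1, Cacna2d2, Cacna2d3, Cacnb2 and Cacnb3), with 8 windows in all. The windows of the 3 α2δ genes that could be tested are shown because 1 was higher, 1 lower and 1 overlapping after injury, and for Cacna2d1, which had 3 starts, the most upstream start was taken. Capitals mark GC boxes, searched as the letters GGGCGG on both strands with overlapping matches counted separately.
Cacna2d1, chr4:20330098-20330397, minus strand: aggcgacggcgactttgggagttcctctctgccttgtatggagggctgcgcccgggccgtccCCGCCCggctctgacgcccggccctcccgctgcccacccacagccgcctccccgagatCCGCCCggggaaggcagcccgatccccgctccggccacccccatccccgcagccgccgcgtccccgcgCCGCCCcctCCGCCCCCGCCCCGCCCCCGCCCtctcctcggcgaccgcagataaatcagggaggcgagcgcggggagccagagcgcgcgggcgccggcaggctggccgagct
Cacna2d2, chr8:116950856-116951155, plus strand: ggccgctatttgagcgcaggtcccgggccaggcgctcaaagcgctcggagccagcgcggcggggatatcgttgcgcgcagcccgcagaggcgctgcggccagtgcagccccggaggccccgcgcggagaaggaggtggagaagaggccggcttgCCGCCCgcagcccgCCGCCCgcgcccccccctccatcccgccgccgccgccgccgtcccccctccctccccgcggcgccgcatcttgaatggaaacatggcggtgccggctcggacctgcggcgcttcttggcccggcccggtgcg
Cacna2d3, chr16:4918850-4919149, minus strand: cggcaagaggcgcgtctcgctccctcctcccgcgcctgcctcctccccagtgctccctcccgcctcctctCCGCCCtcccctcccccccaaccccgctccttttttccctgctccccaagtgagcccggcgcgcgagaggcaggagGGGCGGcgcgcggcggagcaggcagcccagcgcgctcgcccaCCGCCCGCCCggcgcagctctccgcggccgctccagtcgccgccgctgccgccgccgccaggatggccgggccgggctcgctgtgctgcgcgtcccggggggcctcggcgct

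The Cacna2d1 window held 7 GC boxes, lying from 188 to 36 bases before the start, and 0.52% of the 33469 RefSeq promoter windows held at least as many. The windows of its other 2 starts held 3 each, a number reached by 8.97% of windows. The Cacna2d3 window held 4, reached by 4.64% of windows, and the Cacna2d2 window held 2, reached by 17.0% of windows. The GC content was 78.3% for Cacna2d1, 77.0% for Cacna2d2 and 79.3% for Cacna2d3, beside a median of 51.7% over all windows. It was not particular to the α2δ genes, since Cacnb3 had 77.7% with 3 GC boxes. The upstream start of Cacnb2 had 71.7% with 2 GC boxes, and its other start 48.7% with 0. The AP-1 motif TGACTCA, the CRE motif TGACGTCA and the TATA motif TATAAA were found in 0 of the 8 member windows on either strand, and in 4.63%, 1.83% and 14.2% of all windows. These matches describe letters in these windows and no factor's binding was measured.

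Cacna2d1 was the only member called among the 7 that could be tested. The study already names Cacna2d1 as higher after CCI in these same libraries, so the call is no independent result. Its level was read in FPKM, a count scaled by gene length and library total. FPKM allows genes of different length to be compared as far as the lengths used hold. The level of Cacna2d1 was 84.1, 56.8 and 50.4 in CCI 1, 2 and 3 and 28.1, 27.6 and 27.3 in sham 1, 2 and 3. All CCI libraries lay above all sham libraries, and the CCI libraries varied much more (63.8 ± 17.9 against 27.7 ± 0.425, SD, n = 3 each). The counts behind these values were 63247, 42267 and 35240 in CCI and 22840, 20518 and 21155 in sham, so counting error was small beside the difference. By edgeR's quasi-likelihood test the log2 fold change was 1.19 (SE 0.19, 95% interval 0.74 to 1.64), a 2.28-fold higher level, at an unadjusted p of 0.000523. This ranked 125 by p and 554 by fold change among the 26663 rows tested. The Benjamini-Hochberg adjusted p of edgeR over all these rows was 0.109, so Cacna2d1 passed the limits taken from the methods (0.05 for the unadjusted p and 0.58 for the size of the log2 fold change) but not an adjusted threshold of 0.05. Without CCI 1 the log2 fold change was 0.93 and the edgeR adjusted p 0.0157, and DESeq2 with all libraries gave an adjusted p of 1.51e-08. In whole ganglia a different number of cells of a type and a different amount of RNA per cell cannot be told apart.

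Cacna2d3, whose protein also carries channels to the surface and is expressed by sensory neurons, went the other way by a smaller step. Its FPKM was 20.4, 19.6 and 21.2 in CCI and 26.6, 25.1 and 25.7 in sham. No CCI library reached the lowest sham library, and both groups were tight (20.4 ± 0.789 against 25.8 ± 0.742). The log2 fold change was -0.35 (SE 0.05, interval -0.48 to -0.23), or 0.782 of the sham level. Its unadjusted p of 0.000396 was below that of Cacna2d1, its edgeR adjusted p was 0.103, and the fold was under the limit of 0.58, so it was not called.

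Cacna2d2 (chr8:116154425-116284985, plus strand), which encodes the other gabapentinoid-binding subunit, had an FPKM of 12.9, 12.7 and 13.6 in CCI and 13.8, 12.9 and 14.0 in sham. The groups overlapped and the difference was not larger than the spread between libraries (log2 fold change -0.07, SE 0.06, interval -0.21 to 0.07, edgeR adjusted p = 0.741). The interval of the fold, 0.862 to 1.05, left out a change of the size seen for Cacna2d1.

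Cacna2d4 (chr4:151298548-151409263, plus strand), known best from the retina, was close to the detection limit. It had 10, 9 and 11 counts in CCI and 4, 4 and 5 in sham, above the floor of 3 counts per library, and at most 0.036 FPKM in any library. With a mean below 0.5 FPKM it was left out of the rows tested. A fit without that filter gave a log2 fold change of 1.25 with a wide interval (SE 0.76, interval -0.54 to 3.04, edgeR adjusted p = 0.714), so a difference was not detectable at this depth although the counts of the groups did not overlap. The row lies across Lrtm2 on the opposite strand, which had 270 to 294 counts in CCI and 348 to 483 in sham.

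**Figure D1:**
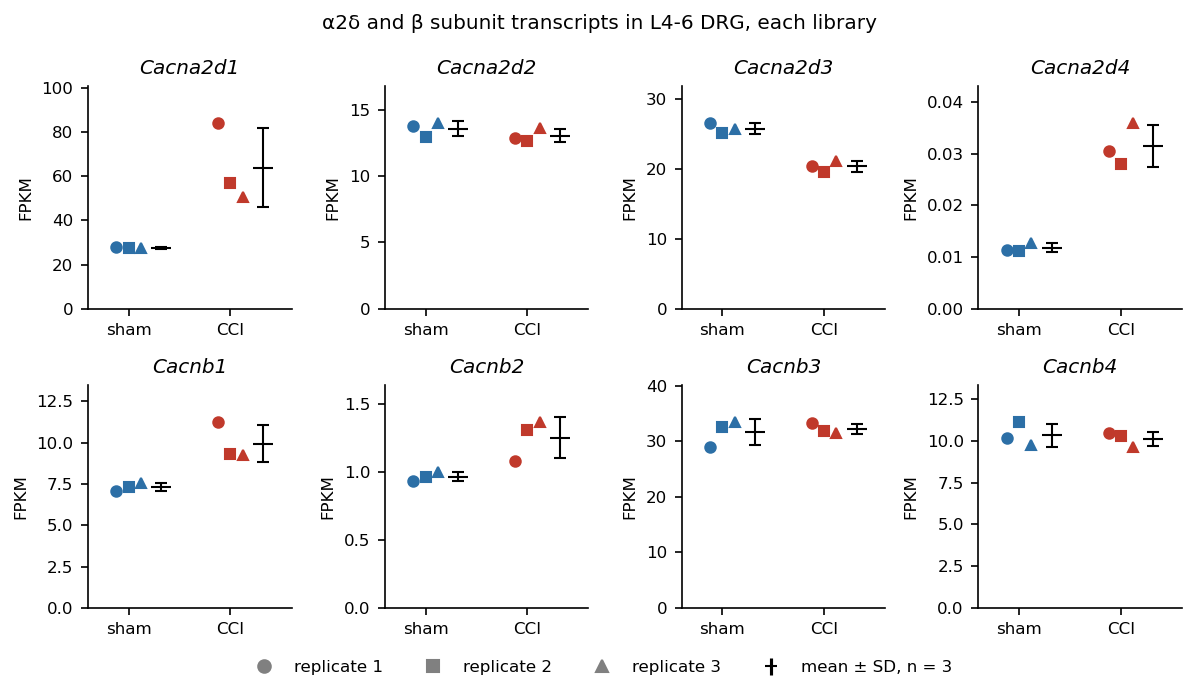
Level of each α2δ and β gene in FPKM (vertical axes, linear and starting at 0, each with its own range) in sham (blue) and CCI (red) libraries. Symbols mark replicate 1, 2 and 3 and the bars give the mean ± SD of 3 libraries. The CCI and sham libraries are fully apart for Cacna2d1, Cacna2d4, Cacnb1 and Cacnb2, where CCI is higher, and for Cacna2d3, where CCI is lower.

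Among the β genes, Cacnb1 (chr10:85954138-85974651, minus strand, as all member positions on the authors' genome) was higher in CCI. This gene encodes the β subunit of the skeletal muscle channel and is also expressed in neurons. Its FPKM was 11.2, 9.32 and 9.28 in CCI and 7.08, 7.30 and 7.59 in sham. All CCI libraries lay above the sham libraries, CCI 1 by the most, as for Cacna2d1. The log2 fold change was 0.42 (SE 0.09, interval 0.20 to 0.65), or 1.34-fold, at an unadjusted p of 0.0032 and an edgeR adjusted p of 0.199, and the fold was under the limit for a call. The Cacnb1 row overlaps at its start the start of the Rpl19 row, a ribosomal protein gene on the opposite strand, whose FPKM was 89.2 to 91.7 in CCI and 76.7 to 81.2 in sham (log2 fold change 0.19, SE 0.05). Since the strand setting of the counting is not stated, reads of the shared stretch cannot be assigned with certainty.

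Cacnb2 (chr17:81798756-82017682, plus strand), the main β subunit of the heart, was the lowest of the β genes, with an FPKM of 1.08, 1.31 and 1.37 in CCI and 0.931, 0.966 and 1.003 in sham. CCI 1 was the lowest of the CCI libraries, unlike for Cacna2d1 and Cacnb1, and the groups stayed apart. Its log2 fold change of 0.35 had an interval that included 0 (SE 0.16, interval -0.04 to 0.74, edgeR adjusted p = 0.515). It rested on 194 to 263 counts per library.

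Cacnb3 (chr7:140310998-140324902, plus strand), a β subunit prominent in neurons, was the highest of the β genes. Its FPKM was 33.2, 31.9 and 31.5 in CCI and 29.1, 32.6 and 33.4 in sham, with the groups overlapping. The log2 fold change was 0.01 (SE 0.07, interval -0.17 to 0.18, edgeR adjusted p = 0.989). Cacnb4 (chr3:37950502-38211001, minus strand), whose loss causes ataxia and seizures in the lethargic mouse, had an FPKM of 10.5, 10.3 and 9.63 in CCI and 10.2, 11.1 and 9.75 in sham. Its groups overlapped too (log2 fold change -0.05, SE 0.07, interval -0.21 to 0.12, edgeR adjusted p = 0.876). The intervals of the fold, 0.891 to 1.13 for Cacnb3 and 0.862 to 1.09 for Cacnb4, were narrow.

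In all, 1 of the 7 members tested was called higher and 0 lower, where 2.57% of all rows tested were called higher, 1.26% lower and 3.83% in either direction. At an unadjusted p under 0.05 with any fold, 2 were higher (Cacna2d1, Cacnb1) and 1 lower (Cacna2d3), beside 5.57% and 5.18% of all rows (10.7% in either direction). At an edgeR adjusted p under 0.05, 0 members were called, beside 0.0938% of rows (0.0638% higher, 0.03% lower), and the same count was 0 by limma and 3 by DESeq2 (2 higher, 1 lower), which placed 1.76% of the 24498 rows it gave an adjusted p higher and 1.3% lower (3.07% in either direction). The groups did not overlap for 4 of the 7, with CCI higher for 3 (Cacna2d1, Cacnb1, Cacnb2) and lower for 1 (Cacna2d3), beside 8.63% and 8.7% of all rows (17.3% in either direction). The median log2 fold change of the 7 members was 0.01, as over all rows, since the higher and lower members lay on both sides of it.

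**Figure D2:**
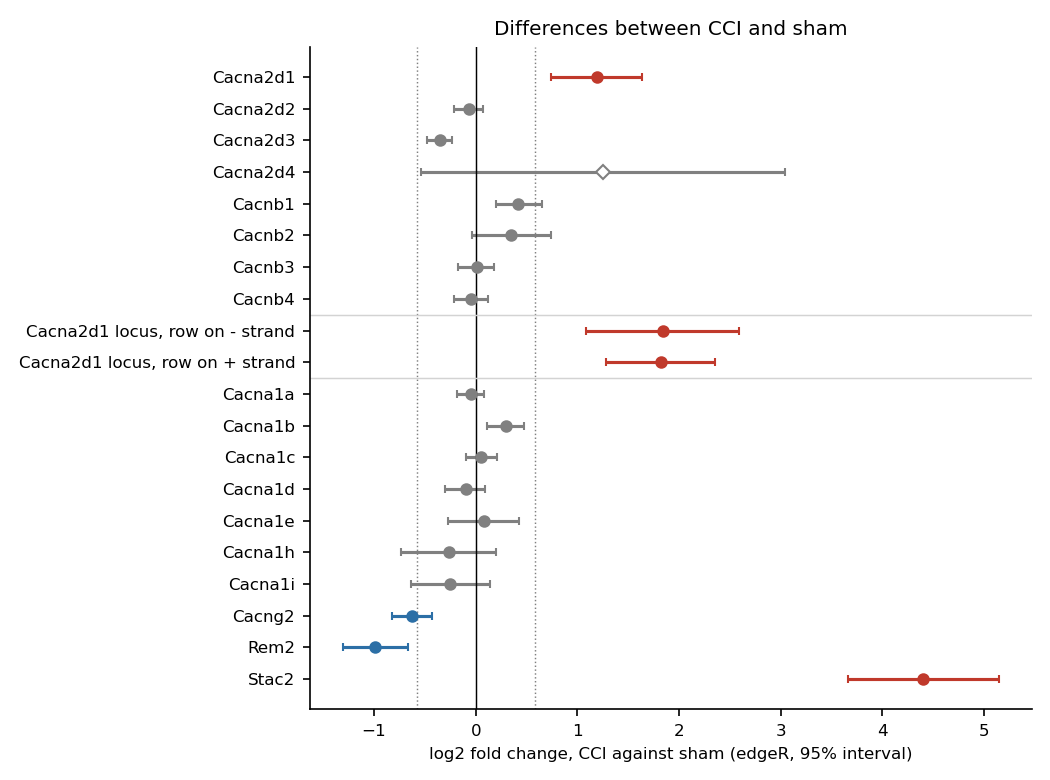
Log2 fold change of CCI against sham (horizontal axis, edgeR) with its 95% interval for the 8 members, 2 further rows in the Cacna2d1 locus, the 7 α1 genes tested and the called genes among the γ subunits and the STAC and RGK regulators. Red and blue mark rows called higher and lower, grey marks rows not called, the open diamond is the fit without a filter for Cacna2d4, and dotted lines mark 0.58 on either side of 0. Cacna2d1 at 1.19 is the single member past the line among those tested, and the interval of Cacna2d3 lies wholly below 0.

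The order of the members by FPKM was not the same in the 2 groups. In sham the mean FPKM ran from Cacnb3 (31.7 ± 2.34) through Cacna2d1 (27.7), Cacna2d3 (25.8), Cacna2d2 (13.6 ± 0.568), Cacnb4 (10.3 ± 0.697), Cacnb1 (7.33 ± 0.255) and Cacnb2 (0.966 ± 0.0359) down to Cacna2d4 (0.0118 ± 0.000904). In CCI Cacna2d1 (63.8) stood first, above Cacnb3 (32.2 ± 0.916), Cacna2d3 (20.4), Cacna2d2 (13.0 ± 0.501), Cacnb4 (10.1 ± 0.435), Cacnb1 (9.95 ± 1.12), Cacnb2 (1.25 ± 0.151) and Cacna2d4 (0.0315 ± 0.00403). The ranges of neighbours in this order did not overlap within a group, except those of Cacnb4 and Cacnb1 in CCI. The order depends on the scaling by length. In mean CPM, which is not scaled by length, Cacna2d1 stood above Cacnb3 in sham too (258 against 212 CPM).

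The make-up of the α2δ family was therefore compared as shares of its summed FPKM, which need no scaling between libraries. Cacna2d1 held 71.6%, 63.7% and 59.1% in CCI and 41.1%, 42.1% and 40.7% in sham. The shares of Cacna2d1 were higher in every CCI library by 23.5 percentage points on average (64.8% ± 6.33 against 41.3% ± 0.718, SD, n = 3; two-sided exact permutation p = 0.1). The share of Cacna2d3 was 17.4%, 22.0% and 24.9% in CCI and 38.8%, 38.2% and 38.4% in sham, and that of Cacna2d2 was 10.9%, 14.2% and 15.96% against 20.1%, 19.7% and 20.9%. Both shares were lower in every CCI library. In sham Cacna2d1 and Cacna2d3 stood at nearly equal levels, at a ratio of 1.06 to 1.10, and in CCI at 4.12, 2.89 and 2.37. With 3 libraries against 3 an exact permutation test cannot give a p below 0.1, the value reached wherever the groups were apart, so none of these tests could pass 0.05.

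In the β family the differences in share were smaller. Cacnb3 held 59.4%, 60.4% and 60.8% of the summed β FPKM in CCI and 61.5%, 62.7% and 64.6% in sham, a mean difference of -2.74 points with the groups apart (exact permutation p = 0.1). With CPM in place of FPKM this difference was -1.55 points and the groups were not apart (exact permutation p = 0.3). Cacnb1 held 20.1%, 17.6% and 17.9% in CCI and 15.0%, 14.0% and 14.7% in sham, a mean difference of 3.98 points (exact permutation p = 0.1). The shares of Cacnb2 and Cacnb4 overlapped between the groups (exact permutation p = 0.3 and 0.2).

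**Figure D3:**
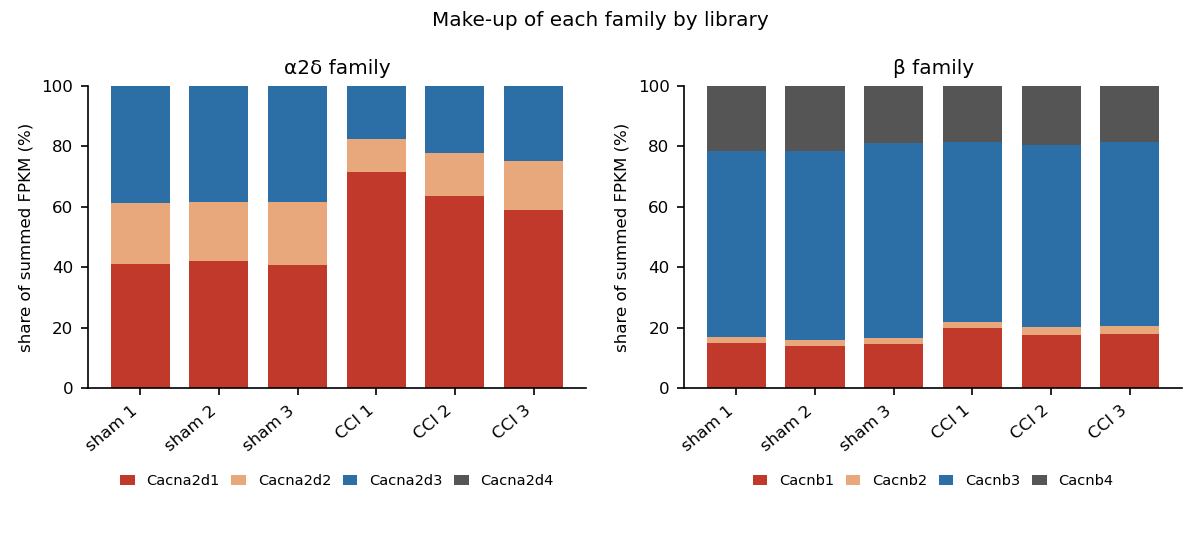
Share of each gene in the summed FPKM of the α2δ family (left) and of the β family (right), in percent, stacked for each of the 6 libraries. Cacna2d1 takes 40.7% to 42.1% of the α2δ family in sham and 59.1% to 71.6% in CCI, while Cacnb3 keeps 59.4% to 64.6% of the β family in all libraries and Cacna2d4 is too small to see.

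Summed over the family, α2δ FPKM was 117, 89.1 and 85.2 in CCI and 68.5, 65.7 and 67.0 in sham. Without Cacna2d1 the sum went the other way, at 33.3, 32.3 and 34.9 in CCI and 40.4, 38.0 and 39.7 in sham. The β sum was 56.0, 52.8 and 51.8 in CCI and 47.2, 52.0 and 51.8 in sham, with overlap (exact permutation p = 0.3). The pore subunits, summed over 10 α1 genes, gave 39.8, 38.7 and 39.1 in CCI and 39.7, 35.9 and 41.4 in sham (exact permutation p = 0.9). This sum includes T-type pores, which are not high-voltage-activated, among them Cacna1h at 6.28 to 8.46 FPKM in CCI and 6.39 to 10.4 FPKM in sham. Per unit of α1 FPKM the α2δ level was thus 2.95, 2.30 and 2.18 in CCI and 1.73, 1.83 and 1.62 in sham, with the groups apart, whereas the β level was 1.37 ± 0.0416 against 1.296 ± 0.136 (SD, n = 3), with overlap. The size of these ratios rests on the lengths behind FPKM. In CPM the α2δ sum in sham was 432 to 442, below the α1 sum of 738 to 792.

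The Cacna2d1 locus held 2 more rows under the same symbol, and both were called higher. The Cacna2d1 row itself covers chr4:15706035-16130848 on the minus strand of the authors' genome and joins 5 assembled transcripts. A row of 6439 bases inside it on the same strand, chr4:16020797-16027235, had 4791, 2111 and 2235 counts in CCI and 914, 886 and 857 in sham. Its log2 fold change was 1.84 (SE 0.31, edgeR adjusted p = 0.114). A row of 20104 bases on the opposite strand, chr4:16101675-16121778, had 8968, 5594 and 4817 counts in CCI and 1879, 1712 and 2156 in sham. Its log2 fold change was 1.82 (SE 0.22, edgeR adjusted p = 0.0746).

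Relative to the main row, both rows were higher in CCI. For every 100 counts of the Cacna2d1 row, the same-strand row had 7.58, 4.99 and 6.34 counts in CCI and 4.002, 4.32 and 4.05 in sham. The opposite-strand row had 14.2, 13.2 and 13.7 in CCI and 8.23, 8.34 and 10.2 in sham. The ratios did not overlap between groups (exact permutation p = 0.1 each, the smallest possible). Each row is 1 assembled transcript without a transcript type, and whether it lies in an exon or an intron was not determined. The libraries were made with a strand-marking kit, but the sources used here do not state whether counting used strand, so reads of the opposite-strand row and of Cacna2d1 cannot be told apart with certainty.

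Rows inside Cacna2d3 (chr16:4871380-5795818, minus strand) were also read. The same-strand row had 77, 111 and 8 counts in CCI and 27, 93 and 106 in sham, and the opposite-strand row 47, 39 and 86 against 81, 103 and 109. Both overlapped between groups, with log2 fold changes of -0.18 (SE 0.89) and -0.69 (SE 0.39).

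Neuronal content was set beside the members, since most of them are expressed by neurons. Of the 10 pan-neuronal markers 0 were called by edgeR or DESeq2, and at an edgeR p under 0.05 with any fold 3 were higher (Tubb3, Prph, Stmn2) and 1 lower (Snap25). Measured against the mean log2 CPM of these markers, Cacna2d1 stood at 0.80, 0.25 and 0.07 in CCI and at -0.63, -0.83 and -0.73 in sham, a mean difference of 1.11 on the log2 scale (exact permutation p = 0.1). The difference for Cacna2d3 on this scale was -0.40, for Cacnb1 0.37 and for Cacnb2 0.30, each with the groups apart (exact permutation p = 0.1 each). For Cacna2d2, Cacnb3 and Cacnb4 the groups overlapped.

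The value for Cacna2d3 differed with the neurons it was set against. Markers of large sensory neurons, such as Nefh, Pvalb and Etv1, were low in CCI, with a summed level of 2841 to 3364 CPM against 4158 to 4627 CPM, 1 of 6 called lower (Pvalb) and 5 of 6 lower at p under 0.05. Relative to them Cacna2d3 differed by 0.07 (log2) with overlapping groups (exact permutation p = 0.6). Relative to nociceptor markers, which overlapped between groups in their summed level (2173 to 2450 CPM in CCI, 2294 to 2656 CPM in sham) but had 4 of 8 lower (Scn11a, Calca, Trpv1, Mrgprd) and 1 higher (P2rx3) at an edgeR p under 0.05, it was lower by -0.25 with the groups apart. Cacna2d1 was higher relative to each of these lists, by 1.26 against nociceptor and 1.57 against large neuron markers. The part of neuron types in the difference of Cacna2d3 was not tested.

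Markers of other cells of the ganglion were read in the same way. Macrophage markers were higher (4 of 6 called, Cd68, Csf1r, Cx3cr1 and C1qa), with a summed level of 76.7 to 106 CPM in CCI and 52.0 to 66.9 CPM in sham. Satellite glia markers had 0 of 5 called by edgeR or DESeq2. At p under 0.05 edgeR had 1 of them higher (Cdh19), and DESeq2 had 1 higher and 1 lower. Their summed level was 972 to 1047 CPM in CCI and 894 to 963 CPM in sham, with the groups apart. Schwann cell markers had 1 of 6 called lower (Pmp2), and their summed level overlapped (6303 to 8747 CPM in CCI, 7883 to 8874 CPM in sham). Fibroblast and endothelium markers had 0 of 4 and 0 of 3 tested at p under 0.05 by either tool, Col1a2 and Pecam1 not being found and Cldn5 being listed at 0 in every library. The part of these cells in the members' differences was not tested. Muscle markers had 5 of 7 called lower by edgeR, 6 of 7 by DESeq2 and 0 of 7 by limma on log2(FPKM + 0.1). Muscle, which expresses Cacna2d1 and Cacnb1, was most evident in sham 1. In that library Cacnb1 was at 7.08 FPKM, the lowest of all libraries, and Cacna2d1 at 28.1 FPKM, the highest sham level. The part of muscle in the members' levels was not tested.

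The channel genes around these subunits were read from fixed lists. Of the 10 α1 genes 7 were tested and 0 called by edgeR, limma or DESeq2. The nearest was Cacna1b, the N-type pore that carries much of transmitter release from sensory terminals, with 29257, 27966 and 24967 counts in CCI and 27042, 21845 and 21461 in sham. Its log2 fold change was 0.30 (SE 0.08, edgeR adjusted p = 0.261), the only one of the 7 tested at p under 0.05. Cacna1s, the pore of skeletal muscle and not tested because of its low level, had 361 counts in sham 1 and 11 to 52 in the other libraries. In the fit without a filter it was lower at an unadjusted p under 0.05 (log2 fold change -2.86, SE 0.95), as was Cacna1g, a T-type pore, with 117 to 178 counts in CCI and 183 to 248 in sham (log2 fold change -0.56, SE 0.23).

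Of the 8 γ genes 6 were tested and 1 was called. At an edgeR p under 0.05 with any fold 2 were lower, the called gene and Cacng5 (log2 fold change -0.33, SE 0.13). The summed level of the γ genes was 156 to 165 CPM in CCI and 182.5 to 184.7 CPM in sham, with the groups apart. Cacng2 (stargazin), which mainly serves AMPA receptors, was lower, with 2091, 2364 and 2121 counts in CCI against 3583, 3644 and 3409 in sham (log2 fold change -0.63, SE 0.08, edgeR adjusted p = 0.0789), a call not made by limma on log2(FPKM + 1). Of 7 STAC and RGK genes, whose proteins bind channel complexes from inside the cell, 4 were tested. Stac2 was higher, with 3997, 2417 and 1993 counts against 120, 121 and 172 (log2 fold change 4.40, SE 0.31, edgeR adjusted p = 0.0105). The study already names Stac2 as higher in the same libraries. Rem2, a GTPase that binds β subunits and lowers calcium current, was lower, with 405, 403 and 362 counts against 897, 854 and 690 (log2 fold change -0.99, SE 0.13, edgeR adjusted p = 0.0798). Of the 13 genes for reported partners of α2δ proteins (thrombospondins, Lrp1, Prnp, neurexins, NMDA receptor subunits and Kcnma1), 12 were tested, with 0 called by either tool and 0 at p under 0.05 by edgeR and 1 by DESeq2. Among these Thbs4 had a log2 fold change of 0.30 with an equally large error (SE 0.30). Grin2a, the partner not tested because of its low level, had 34, 116 and 66 counts in CCI and 126, 215 and 160 in sham, with CPM overlapping between groups. In the fit without a filter it was lower at an unadjusted p under 0.05 (log2 fold change -1.16, SE 0.47, edgeR adjusted p = 0.549).

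The genes closest to each member in pattern were found by Pearson's r of log2 CPM over the 6 libraries, among 13262 protein-coding genes. For Cacna2d1 they were Sema4f (r = 0.9981), Sema6a (r = 0.9975) and a row that joins Tnik with a neighbour (r = 0.9959). Sema6a had 167, 100.8 and 94.0 CPM in CCI and 48.5, 45.1 and 48.7 CPM in sham. For Cacna2d3 they were Xpo7 (r = 0.9966), AABR07045058 (r = 0.9951) and Lrrc49 (r = 0.9935), and for Cacnb1 they included Pip5k1b (r = 0.9973) and Tmcc3 (r = 0.9967). Each r rests mostly on the gap between the groups and, for Cacna2d1, on the height of CCI 1, and is a description of these 6 libraries.

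**Figure D4:**
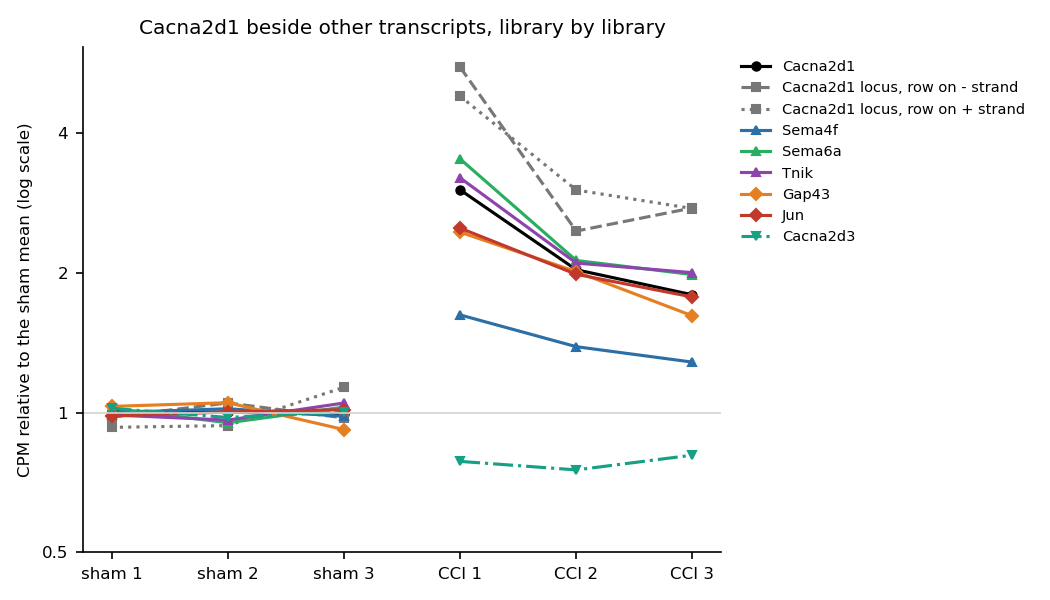
CPM of each row divided by its sham mean (vertical axis, log scale) in the 6 libraries, for Cacna2d1, the 2 further rows of its locus, the 3 genes most like it, the injury markers Gap43 and Jun, and Cacna2d3. Lines join the values of a row within a group and imply no order of libraries. Cacna2d1, like the other higher rows, is highest in CCI 1, while Cacna2d3 lies below 1 in all 3 CCI libraries.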

How the data were processed

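Total RNA from 3 CCI and 3 sham libraries was depleted of ribosomal RNA and sequenced by the authors in paired ends. Per the labels, HISAT2 2.0 and StringTie 1.3.0 were used, with a rat genome the study calls V101. The authors deposited raw read counts and FPKM values for each assembled gene row, with FPKM set to 0.0001 where the count was 0. Columns of the authors' own comparison were not used. Rows without a symbol numbered 6849 and held 5.37% to 5.72% of counts.

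Counts were fitted with edgeR 4.0.16 (TMM factors 0.988 to 1.01, estimateDisp, glmQLFit and glmQLFTest, prior degrees of freedom 2.52) on the 26663 rows whose mean FPKM reached 0.5, and p-values were adjusted by Benjamini-Hochberg over all of them. The limits for a call were 0.05 for the unadjusted p and 0.58 for the size of the log2 fold change, as in the study. CPM used TMM-scaled totals. Shares and ratios of FPKM or log2 CPM were compared by two-sided exact permutation tests over libraries. The fit was tested on simulated data. The floor was 3 counts per library, and it covers counting error only.

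Alternatives were DESeq2 1.42.0, limma 3.58.1 on log2(FPKM + 1) and log2(FPKM + 0.1), RLE factors, a minimum of 1 FPKM, no filter, summed rows of a symbol, a replicate block and leaving out each library. The α2δ and β to α1 ratios were added after seeing the data. Members and lists were chosen with earlier results of these data known. Named were all members, called genes of the channel lists, the 3 genes most like each member (mean CPM of at least 1) and rows overlapping a member. Of these genes, 1 is not reported here. Analyses used R 4.3.3 and Python 3.11.15.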

Additional observations from a re-analysis of the deposited data

How the results depend on the processing

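Every alternative run called 1 of the 7 members, and the log2 fold changes of Cacna2d1 (0.93 to 1.33), Cacna2d2 (-0.10 to -0.04), Cacna2d3 (-0.38 to -0.32), Cacnb1 (0.32 to 0.47) and Cacnb2 (0.19 to 0.44) kept their direction in 14 of 14 alternatives. The sign of Cacnb3 turned to -0.02 without CCI 1 and to -0.06 without sham 1, and that of Cacnb4 to 0.01 without sham 2 (its range was -0.08 to 0.01). The range of edgeR, limma and DESeq2 adjusted p was 1.51e-08 to 0.324 for Cacna2d1, 0.000203 to 0.296 for Cacna2d3 and 0.0122 to 0.447 for Cacnb1, the lowest from DESeq2 in each case. Cacnb2 passed an unadjusted 0.05 without CCI 1 (unadjusted p of 0.0399 by edgeR).

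Over all rows, 410 were called higher and 161 lower by limma on log2(FPKM + 1). Below an adjusted p of 0.05, edgeR placed 25 rows and DESeq2 751, and leaving out a library gave 6 (without CCI 2) to 61 (without CCI 1), with 38 without CCI 3 and 8 without sham 1. The cause was not tested. The log2 difference of Cacna2d1 from neuronal markers was 1.57 with large neuron markers as the reference. The difference of its share ranged from 19.6 to 26.4 points and that of the Cacnb3 share from -3.46 to -1.55 points. The value of -1.55 came from CPM in place of FPKM, where the groups were no longer apart (exact permutation p = 0.3). The difference of α2δ per α1 ranged from 0.518 to 0.903 when a library was left out. With 3 libraries against 2 the exact permutation p cannot go below 0.2.

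Labels number the libraries 1 to 3 in both groups, but same-numbered libraries did not deviate together (r = -0.0106, -0.0218 and -0.0547), so the numbers were not taken as pairs. With a replicate block 617 rows were called higher, 318 lower and 0 below an adjusted p of 0.05 by edgeR, and Cacna2d1 had a log2 fold change of 1.15 (edgeR adjusted p = 0.258).

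Depth limited Cacna2d4, with at most 11 counts. Cacnb2 had 194 to 263 counts per library, and whether depth limited it was not tested. Each other member had at least 3362 counts in every library. The 3 libraries a group, male rats of 1 day after injury and whole ganglia limit the rest.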

Other observations

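The genes most like the other members in pattern were as follows. Cacna2d2 was followed by Kcnip1 (r = 0.9911), a potassium channel interacting protein, Thra (r = 0.9753) and Gimap4 (r = 0.9714). Cacnb3 was followed by Phlpp2 (r = 0.9886), Trafd1 (r = 0.988) and Exoc1 (r = 0.9874), all with the lowest level in sham 1. Cacnb4 was followed by Atp2c1 (r = 0.9898), S1pr3 (r = 0.984) and Dnaaf5 (r = 0.9787), all with the highest level in sham 2. Cacnb2 was followed by Tmem214 (r = 0.9958), Mx1 (r = 0.9923), an interferon-induced GTPase, and Gpank1 (r = 0.9904). Each r is Pearson's r of log2 CPM over the same 6 libraries, among 13262 genes, and is given as a description.

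Mx1 had 14.2, 19.1 and 21.4 CPM in CCI and 10.5, 10.5 and 11.97 CPM in sham, with CCI 1 the lowest CCI library, as for Cacnb2. Its log2 fold change was 0.73 with an edgeR adjusted p of 0.201. CCI 1, the highest library for Cacna2d1 and for 8 of 8 injury markers, was thus the lowest CCI library for both.

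Rows of other genes inside some members held few counts. Within Cacna2d3, 2 rows of LOC102547963 had 8 to 55 counts per library, and within Cacnb4 a snoRNA row had 7 to 23 counts. A U2 snRNA row within Cacnb2 had at most 3 counts, the detection floor.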
